A study of Mus musculus with 30 samples.

Results

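Deletion A, Deletion B and Deletion AB are mouse embryonic stem cell (mESC) clones that lack neighbouring stretches at the proximal end of the X chromosome inherited from 129/Sv. They were chosen by their labels and are 3 of the 30 RNA-seq libraries of the study, with 1 library and 1 clone each. All are female F1 129/Sv x Cast/Ei cells with the genotype Rnf12 +/-, plus Deletion A +/-, Deletion B +/- or Deletion AB +/-, and they were grown on embryonic fibroblast feeders (MEFs) with LIF and pre-plated before lysis to remove the feeders. Throughout, Mus means the 129/Sv allele, which carries both the deletions and the Rnf12 loss, and Cast means the intact allele. The study derived these clones from a single Rnf12 +/- line, and a resistance cassette was left at each deletion. It found AB as a clone that had lost more than was planned, and it set the limits of each loss from the allele-specific reads themselves. A further A clone was set aside by the study, so clone-to-clone spread within A, B or AB cannot be measured.

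The reference was 12 libraries of the same library series, from Deletion C, Deletion D, Deletion F, Deletion H, Deletion I and Deletion K, with 2 clones each. They carry the same Rnf12 +/- background, and each lacks a different, more distal part of the Mus X. They therefore have both copies of every gene in the stretch lost by A, B or AB. Total counts were 8815980 for A, 10459495 for B and 10653154 for AB, against 9989407 to 10679746 for the reference, and 12.18% to 12.65% of them could be assigned to an allele. Levels below are CPM, counts relative to a library size scaled on autosomal genes. Per-copy levels take account of 2 copies in the reference and 1 inside a deletion. Tests were edgeR quasi-likelihood tests with Benjamini-Hochberg adjustment over all 11681 expressed genes, and a gene is called below an adjusted p of 0.05. Since A, B and AB have 1 clone each, every p-value assumes that they vary like the reference clones, and it measures only the spread between those libraries. In 2 reference clones whole autosomes stood above the rest, with a median log2 difference of 0.47 for chromosome 1 and 0.46 for chromosome 14 in Deletion I clone 1, and of 0.33 for chromosome 8 in Deletion F clone 2. In A, B and AB the chromosome medians lay between -0.08 and 0.07.

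Female mESCs keep both X chromosomes active until they differentiate, so a gene on the X is read from both alleles. Cells with a single active X can raise the output of X-linked genes, a process called X-chromosome upregulation. Rnf12, also named Rlim, encodes a ubiquitin ligase that degrades REX1 and thereby promotes Xist, and heterozygous loss biases which X is silenced on differentiation. A segmental deletion asks whether a gene left with 1 copy in a cell that otherwise has 2 X chromosomes is read more strongly from that copy.

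Rlim was checked first, because all of the clones should lack its Mus allele. Mus reads made up 11 of 218 allelic reads in A (5.05%), 5 of 230 in B (2.17%) and 4 of 235 in AB (1.70%). In the reference clones the share lay between 1.65% and 4.02%, with a median of 2.48%. The level of Rlim was 207 CPM in A, 172 in B and 191 in AB, all within the reference range of 152 to 408 (median 229). Xist, the RNA that silences an X on differentiation, was at 9.85 CPM in A, 3.07 in B and 6.21 in AB, with 0.219 to 10.3 in the reference.

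The alleles placed the 3 losses side by side. Of 69 expressed protein-coding genes in the whole stretch, 33 lay inside A, from Nudt11 to Fthl17f (mm10, chrX:6047453-9063861), 21 lay inside B, from Rp2 to Akap17b (chrX:20364481-36645395), and 15 lay between them, from Xk to Kdm6a (chrX:9272756-18279936). These coordinates are the outer ends of the expressed genes, not the breakpoints. Inside region A, Mus reads were 28 of 1211 in A (2.31%, 95% Wilson interval 1.60 to 3.32) and 29 of 1384 in AB (2.10%, 1.46 to 2.99). B, which keeps this region, had 50.1%, and the reference clones had 48.15% to 51.42%. Inside region B, Mus reads were 12 of 1790 in B (0.670%, 0.384 to 1.17) and 28 of 1793 in AB (1.56%, 1.08 to 2.25), against 44.3% in A and 41.6% to 48.2% in the reference. The stretch between A and B was lost in AB alone: 9 of 949 reads were Mus there (0.948%, 0.500 to 1.79), against 50.6% in A, 49.0% in B and 46.9% to 51.6% in the reference. Intervals and limits cover counting error only. AB is thus not A plus B, since it also lacks the 15 genes between them.

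**Figure D1:**
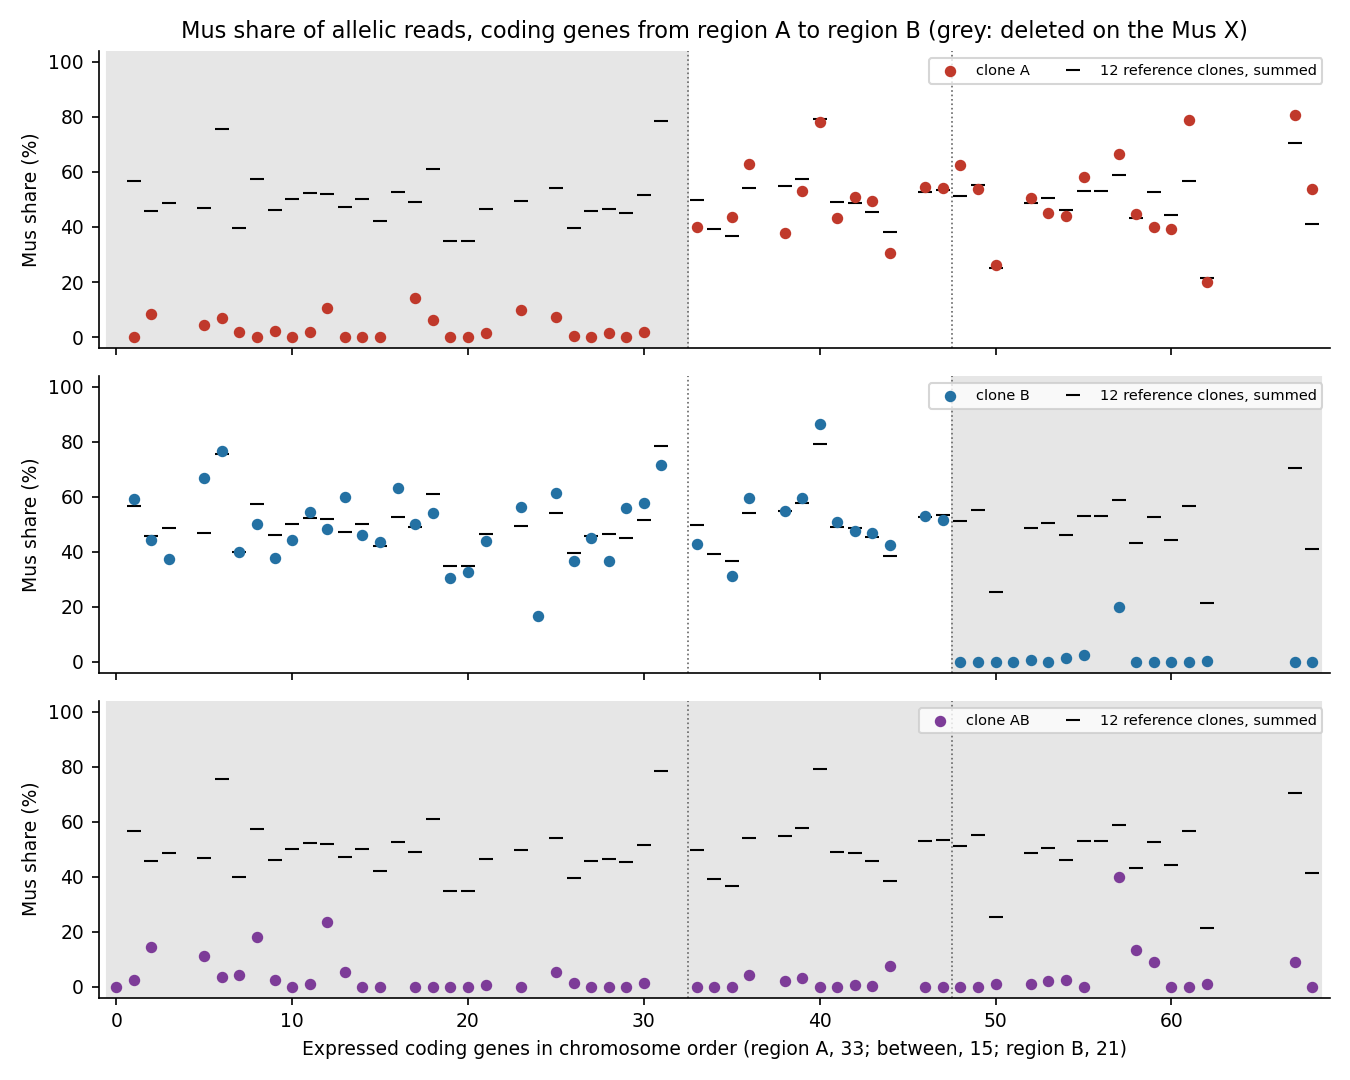
Share of allelic reads from the Mus allele (percent, vertical axes) for the expressed protein-coding genes with enough allelic reads, in order along the proximal X (horizontal axis), as points in A, B and AB (1 panel each) and as bars for the summed reference clones, with deleted genes shaded grey. The share falls to near 0 over region A in A and AB, over region B in B and AB, and between them in AB alone, and the deleted gene with the highest share is Timp1, with 2 Mus reads of 5 in AB.

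The genes next to the ends were then read against the limits that the study set from these same reads. No expressed gene with enough allelic reads lay outside the proximal end of A, so that end was seen from inside only. Shroom4, an actin-binding protein gene near the proximal end of A, had 0 of 8 Mus reads in A, which allows a share of up to 37.5%, and 1 of 40 in AB, against 35 of 59 in B and 275 of 485 in the reference. Ftsj1, a tRNA methyltransferase gene near the distal end of A, had 1 of 57 in A, 1 of 69 in AB, 88 of 152 in B and 1061 of 2063 in the reference. Xk, an expressed gene distal of A, which encodes a membrane protein of red cells, kept its Mus reads in A (4 of 10) and B (6 of 14) and had 0 of 12 in AB, which allows up to 25.0%. Kdm6a, an H3K27 demethylase gene next to B, had 20 of 37 in A, 17 of 33 in B and 0 of 17 in AB, which allows up to 17.6%. At the distal end of B, Akap17b had 0 of 8 in B and 0 of 9 in AB (limits 37.5% and 33.3%), and the following gene, Nkap, had 37 of 71 and 36 of 72, beside 357 of 783 in the reference. Rp2, at the proximal end of B, had 0 of 5 reads in both B and AB, too few to place it by itself.

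Total levels of deleted genes fell to close to the share that 1 copy of 2 would leave. The median gene of region A was at 48.5% of the reference mean in A (interquartile range 43.2 to 55.9) and at 53.3% in AB (44.7 to 65.8), while it was at 100.9% in B. The median gene of region B was at 48.2% in B (44.0 to 54.7) and at 48.2% in AB (43.8 to 57.6), and at 98.4% in A. Between the regions, the median gene was at 57.1% in AB (44.3 to 71.7), at 94.7% in A and at 91.0% in B. In all, 51 of the 69 genes were lower in every clone that lacked a copy than in every other library, 18 overlapped and 0 were higher. By region these were 22 of 33 genes in A, 11 of 15 between and 18 of 21 in B, where 1.23%, 6.99% and 1.12% of autosomal genes were below in the same clones.

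**Figure D2:**
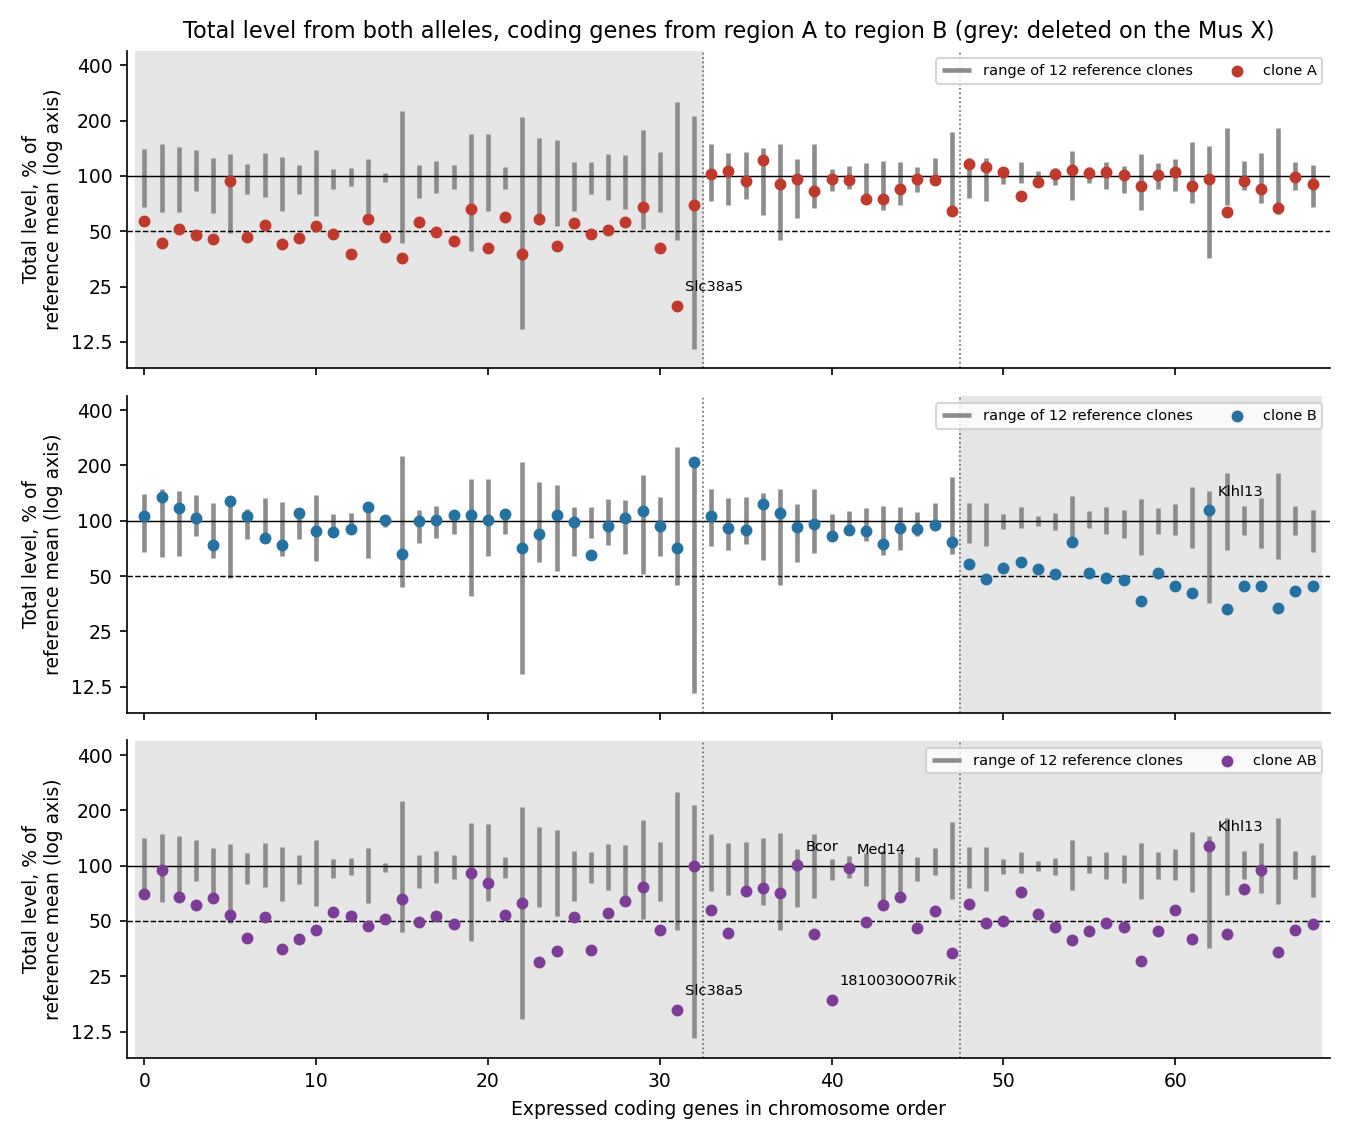
Total level of each expressed protein-coding gene as a percent of the mean of the 12 reference clones (vertical axes, log scale), in order along the proximal X (horizontal axis), as points in A, B and AB (1 panel each), with vertical bars for the range of the reference clones, lines at 100% and 50%, and deleted genes shaded grey. Most deleted genes lie near 50%, with medians of 48.5% and 53.3% in region A, 48.2% and 48.2% in region B and 57.1% between the regions.

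Without a correction for copy number, 28 of the 69 genes were called lower, 11 in region A (A and AB together), 14 in region B (B and AB together) and 3 between (AB). In the same contrasts 0.00893%, 0.0179% and 0% of the autosomal genes were called lower. The median log2 difference was -0.94 in region A, -1.03 in region B and -0.81 between. No gene was called higher.

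The called genes of region A served several cell functions. Tfe3, the transcription factor gene of lysosome biogenesis, was at 145 CPM in A and 169 in AB, against 263 in B and 257 to 328 (median 309) in the reference. A and AB lay below every other library, and the total difference was -0.94 (log2, SE 0.108, edgeR adjusted p = 0.000582). Otud5, a deubiquitinase gene, was at 112 CPM in A and 123 in AB, against 243 in B and 222 to 250 in the reference (median 246), again without overlap (log2 difference -1.03, SE 0.0837, edgeR adjusted p = 2.81e-05). Hdac6, which encodes a cytoplasmic tubulin deacetylase, was at 121 and 109 CPM in A and AB, against 172 to 226 in the reference. Also called were Plp2 and Praf2, which encode membrane proteins, the autophagy gene Wdr45, the endosomal adaptor gene Gripap1, the sugar-nucleotide transporter gene Slc35a2, the splicing-related gene Pqbp1, the mitochondrial import gene Timm17b and the cold-inducible RNA-binding protein gene Rbm3. Plp2 overlaps Prickle3 on the opposite strand. The study's methods give stranded libraries and counting by strand with featureCounts. The labels name HTSeq as the counter, so it is not certain that reads of such pairs were separated by strand.

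Uba1, in region B, encodes the ubiquitin-activating enzyme that feeds most ubiquitin ligases. It was at 922 CPM in B and 915 in AB, against 1552 in A and 1571 to 1790 (median 1672) in the reference, so that both deleted clones were far below the rest (log2 difference -0.88, SE 0.0757, edgeR adjusted p = 6.9e-05). Araf, a kinase gene of the RAF family upstream of ERK, was at 62.3 and 52.5 CPM in B and AB, against 124 in A and 110 to 134.8 in the reference. Elk1, the gene of a transcription factor that ERK phosphorylates, was at 35.7 and 30.3 CPM, against 69.5 in A and 57.8 to 80.9. Ndufb11, a subunit gene of respiratory complex I, was at 77.3 and 69.6 CPM, against 147 in A and 126 to 152. All 3 were called (edgeR adjusted p of 8.19e-05, 0.00101 and 0.000104). The other called genes were Jade3, Rbm10, Cdk16, Syn1, Timp1, Cfp, Uxt, Dock11, Pgrmc1 and Akap17b. Araf and Timp1 overlap Syn1, and Ndufb11 overlaps Rbm10, on opposite strands. Elk1 and Uxt overlap on the same strand, so reads of that pair may be mixed.

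Between the regions, Usp9x, a deubiquitinase gene, was at 433 CPM in AB, against 655 in A, 767 in B and 678 to 1023 (median 889) in the reference (log2 difference -1.01, SE 0.183, edgeR adjusted p = 0.0363). Maoa, which encodes an amine-degrading enzyme of mitochondria, was at 64.9 CPM in AB, against 136 in A, 127 in B and 117 to 159 in the reference (log2 difference -1.13, edgeR adjusted p = 0.00644). Ddx3x, an RNA helicase gene, was at 689 CPM in AB, below 852 in A, 844 in B and the reference range of 734 to 1368, but it was not called (adjusted p = 0.907). Kdm6a was at 54.8 CPM in AB, against 105 in A, 125 in B and 108 to 280 in the reference (adjusted p = 0.71).

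Per remaining copy, the deleted genes were close to the reference level. In region A the median per-copy log2 difference of A and AB from the reference was 0.06, with 19 of 33 genes above 0. By edgeR 0 genes were called, and 0 had an unadjusted p below 0.05, beside 0% called among all 11681 genes tested and 1082 of them below that unadjusted p. DESeq2 called 0 protein-coding genes there. In region B the median for B and AB was -0.03, with 9 of 21 genes above 0. There edgeR called 0, with 2 higher and 1 lower at an unadjusted p below 0.05, beside 0.0257% of all genes called (0.00856% higher and 0.0171% lower), and DESeq2 called 0 protein-coding genes. Between the regions the median for AB was 0.19, with 9 of 15 genes above 0, and edgeR called 1 gene higher (Med14) and 1 lower (1810030O07Rik), beside 0.0342% of all genes called, 0.0257% higher and 0.00856% lower.

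The libraries were also ordered by their per-copy level. Of the 69 genes, 9 were higher per copy in every deleted clone than in every other library, 2 were lower and 58 overlapped. Region A had 0 higher and 1 lower, which was Slc38a5, an amino acid transporter gene at under 1 CPM in both clones (0.961 and 0.801), against 2.18 to 12.3 in the reference. Region B had 3 higher, Rbm10, Uba1 and Klhl13. The stretch between had 6 higher, Rpgr, Tspan7, Bcor, Med14, Ddx3x and Cask, and 1 lower. Among autosomal genes in the same clones, 1.62% (A and AB), 0.991% (B and AB) and 5.2% (AB) were higher, and 1.23%, 1.12% and 6.99% were lower.

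Med14 (chrX:12675369-12762073), which encodes the scaffold subunit of the Mediator complex, was at 93.3 CPM in AB, with 91.3 in A, 86.1 in B and 82.1 to 109 (median 95.5) in the reference. Its total level in AB was therefore inside the reference range although 1 of its 2 copies was gone. Per copy it was higher by 0.95 (log2, SE 0.14, edgeR adjusted p = 0.0213). Reads of its Cast allele numbered 63 in AB, 34 in A and 25 in B, against 22 to 43 in the reference. On the Cast allele alone the log2 difference was 0.94 (unadjusted p = 0.00443, edgeR adjusted p = 0.813), which was not called. The per-copy difference stayed between 0.93 and 0.97 with any 1 reference clone left out, but the call was lost without Deletion H clone 2, Deletion I clone 2 or Deletion K clone 1. It was also lost with a block on clone number (difference 0.92) and against the XX Rnf12 libraries (difference 0.58).

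The next gene, 1810030O07Rik (chrX:12654879-12673668), ends 1700 bases from Med14 and went the other way. It was at 8.71 CPM in AB, against 45.3 in A, 38.9 in B and 39.0 to 51.3 (median 48.2) in the reference, so 18.6% of the reference mean was left. The per-copy log2 difference was -1.43 (SE 0.184, edgeR adjusted p = 0.00616), and it was called with any 1 reference clone left out. The reference clones read this gene mostly from Mus: 123 of their 593 allelic reads were Cast (20.7%, Wilson 17.7 to 24.2), and AB had 8 Cast reads, within the reference range of 5 to 17. The level left in AB was thus inside the interval of the share that the Cast allele gave in the reference.

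Bcor, a corepressor gene whose product belongs to a noncanonical Polycomb repressive complex 1, was at 111 CPM in AB, with 105 in A, 102 in B and 65.3 to 136 in the reference. The per-copy log2 difference was 1.01 (SE 0.254, edgeR adjusted p = 0.802), and AB had 48 Cast reads, against 13 to 37 in the reference. It was not called, but it was called with a separate term for each reference line (adjusted p = 0.00986), where the spread is that between clones of a line. Klhl13, an adaptor gene of a CUL3 ubiquitin ligase in region B, was at 1051 CPM in B and 1183 in AB, with 888 in A and 330 to 1345 (median 933) in the reference. Its total level did not fall below the reference range in either clone, and the per-copy log2 difference was 1.27 (SE 0.301, edgeR adjusted p = 0.556, and 0.00896 with a term for each line). In the reference 3060 of its 3898 allelic reads were Cast (78.5%). Rbm10, an RNA-binding splicing regulator gene, was at 72.6 and 87.0 CPM in B and AB, with 94.2 in A and 111 to 144 in the reference (per-copy log2 difference 0.39, edgeR adjusted p = 0.556, and 0.0209 with a term for each line).

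With that term for each line, the calls in region A were Pcsk1n (per-copy log2 difference 0.80, adjusted p = 0.0051) and Porcn (0.60, adjusted p = 0.0381), higher, and Rbm3 (-0.27, adjusted p = 0.0374), lower, beside 2 pseudogenes. Porcn encodes the acyltransferase that lipid-modifies Wnt proteins. Kdm6a was called lower per copy (-0.51, adjusted p = 0.0152) between the regions. Rbm3 was also at 169 CPM in B, which keeps both copies, below the reference range of 208 to 309, and at 126 in A and 90.4 in AB.

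**Figure D3:**
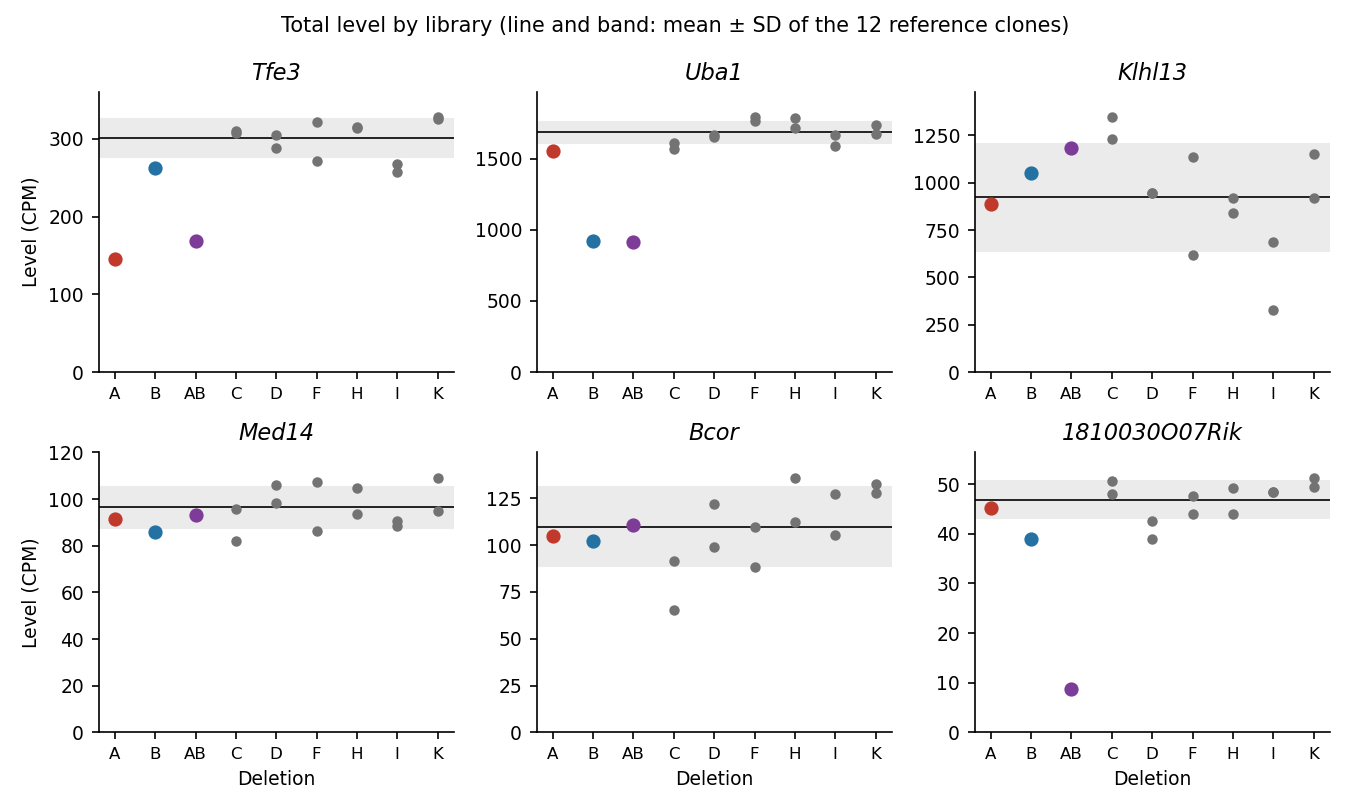
Level in CPM (vertical axes) of Tfe3, Uba1, Klhl13, Med14, Bcor and 1810030O07Rik in A, B, AB and the 2 clones of each reference line (horizontal axes), with the line and band giving the mean and SD of the 12 reference clones. Tfe3 falls in A and AB and Uba1 in B and AB, whereas Klhl13, Med14 and Bcor stay within the reference range in the clones that lack a copy, and 1810030O07Rik falls to 8.71 CPM in AB.

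The levels left were next compared with the share that Cast gave in the reference. Over the 53 deleted genes with at least 120 allelic reads in the reference, the Cast share ran from 20.7% (1810030O07Rik) to 78.5% (Klhl13) with a median of 50.5%. Genes with a higher Cast share tended to keep more, with Pearson r = 0.48 and Spearman rho = 0.43 across genes, which share the same libraries and are not independent. Without the 2 genes farthest from the median share, r was 0.23 and rho 0.36, so the size of r rested on them. Some genes departed from their share: Plp2 gave 24.4% from Cast and kept 43.4%, and Ndufb11 gave 74.8% from Cast and kept 52.6%. Bcor gave 45.1% and kept 100.7%.

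**Figure D4:**
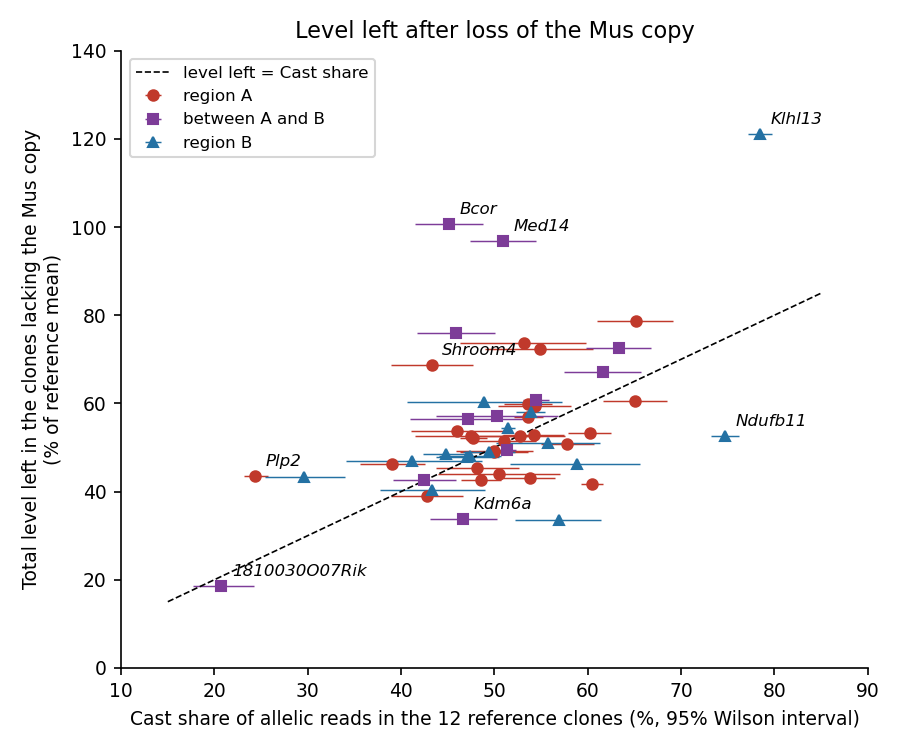
Percent of the reference level left in the clones that lack a copy (vertical axis) against the Cast share of allelic reads in the reference clones (percent, horizontal axis, bars for the 95% Wilson interval), for 53 genes of region A, region B and the stretch between, with a dashed line where the level left equals the Cast share. The points rise with the Cast share (r = 0.48), 1810030O07Rik lies at the low end and Klhl13 at the high end, and r is 0.23 without these 2 genes.

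Reads of the Cast allele, a subset of the total reads, counted the intact copy alone. Cast reads summed over region A were at 90.7% of the reference mean in A, 87.9% in AB and 87.2% in B, which has both copies, and the reference clones ran from 85.4% to 119%. Over region B the sums were 109.2% in B, 108.5% in AB and 102.4% in A, within a reference range of 83.5% to 112%. Between the regions AB was at 108.8%, A at 82.0% and B at 86.7%, with a reference range of 79.1% to 116%. All of these sums lay inside the reference range. Gene by gene, the median Cast log2 difference was -0.26 in region A (6 of 23 genes higher), -0.09 in region B (4 of 12 higher) and 0.11 between (6 of 9 higher), and edgeR called 0 of them, beside 0% of 7873 genes tested in each of these contrasts. At an unadjusted p below 0.05, those contrasts held 585, 492 and 386 genes of all tested, Gpkow and Rbm3 (lower) in region A, Cfp (lower) in region B and Med14 and Bcor (higher) between among them.

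Summed over the expressed protein-coding genes of a region, total reads gave a like answer in region A. The sum was at 100% per copy in A and 103% in AB, beside 87.9% to 111.7% in the reference. Between the regions AB was at 114.7%, inside a range of 79.3% to 116.9%, where A was at 80.0% and B at 84.3%. In region B the sums stood above the reference, at 134.7% in B and 137% in AB against 83.1% to 110.4%. Without Klhl13 the sums were at 108.2% in B and 103.1% in AB. The mean of log2 levels, in which each gene counts equally, was at 101.1% and 104.6% of the reference mean.

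Processed pseudogenes did not follow the protein-coding genes. The stretch holds 16 that passed the expression filter. For 15 of them the total levels of the clones lacking a copy were neither all above nor all below the libraries with both copies. In AB, pseudogenes between the regions were at a median of 95.3% of the reference, and 592 of their 624 allelic reads were counted as Mus (94.9%), against 92.8% to 96.3% in the reference, although the Mus copy is gone. Pseudogenes share sequence with parent genes elsewhere, so their reads are uncertain. They were left out of all counts of protein-coding genes, and 2 of the 4 genes called per copy between the regions were pseudogenes.

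AB was then set against A and B for the genes each shares with it. In region A, 19 of 33 genes were higher in AB than in A, with a median log2 difference of 0.13. By edgeR 0 were called, 2 had an unadjusted p below 0.05 (Shroom4 and Gripap1), and over all genes tested the share called was 0%, with 544 genes at such a p. Shroom4 was at 12.3 CPM in A and 26.7 in AB, with 38.2 in B and 18.0 to 42.4 in the reference. In region B, 12 of 21 genes were higher in AB than in B, with a median of 0.01. There 0 were called, 3 had an unadjusted p below 0.05 (Usp11, Dock11 and Il13ra1), and over all genes tested the share called was 0%, with 301 genes at such a p. Usp11, a deubiquitinase gene, was at 163 CPM in B and 84.3 in AB, with 229 in A and 158 to 293 in the reference. DESeq2 and the fit with a term for each line also called 0 in both comparisons.

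X-linked genes outside each deletion differed little as a group. The median log2 difference was -0.08 in A (143 of 341 protein-coding genes higher), -0.06 in B (133 of 353) and 0.02 in AB (159 of 305), where the autosomal medians were -0.003, 0.002 and -0.018. Unadjusted p-values below 0.05 were found for 31, 12 and 17 of them, and edgeR called 0 in each. DESeq2 called 1 in A, Dlg3, and 0 in B and AB. Dlg3, the gene of a synaptic scaffold protein, was at 116 CPM in A, with 92.7 in B, 90.6 in AB and 66.3 to 80.1 in the reference, so all 3 clones lay above all 12 (log2 difference in A 0.66, edgeR adjusted p = 0.188, DESeq2 adjusted p = 0.000289). Of the autosomal genes, 0.803% lay above all 12 in all 3 clones and 0.669% below.

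On the autosomes edgeR called 0 of 11204 genes in A, 0 in B and 0 in AB, with 997, 472 and 540 genes at an unadjusted p below 0.05. DESeq2 called 38 genes in A (6 higher, 32 lower), 0 in B and 4 in AB (all lower), and a term for each reference line gave 968, 75 and 349 calls. The count therefore depended on the fit. DESeq2 pooled the reference lines as edgeR did, whereas a term for each line leaves differences between the lines out of the spread. Why the fits differ was not tested. The genes named below passed in both DESeq2 and the fit with a term for each line, and were chosen after their values were seen. A is also the library with the fewest reads. Of the autosomal genes, 9.6% were above and 8.92% below all other libraries in A, against 4.89% and 4.86% in B and 5.2% and 6.99% in AB.

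Among the genes lower in A by both of these fits were Spry4, Myc and Chac1. Spry4, a feedback inhibitor gene of receptor tyrosine kinase signalling, was at 40.2 CPM in A, with 108 in B, 106 in AB and 103 to 203 (median 148) in the reference (log2 difference -1.94, SE 0.366, edgeR adjusted p = 0.188, DESeq2 1.8e-05). Myc was at 14.7 CPM in A, 27.9 in B and 31.8 in AB, with 30.3 to 72.8 in the reference (log2 difference -1.74, edgeR adjusted p = 0.293, DESeq2 0.00188). Chac1, a glutathione-degrading enzyme gene induced by the integrated stress response, was at 6.25 CPM in A, 16.7 in B and 25.9 in AB, with 19.9 to 44.3 in the reference (log2 difference -2.17, edgeR adjusted p = 0.265, DESeq2 0.000735). In each case A was below all other libraries.

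Sfpq, Xpo1 and Hells were also lower in A by both fits. Sfpq, a splicing factor gene, was at 305 CPM in A, with 552 in B, 585 in AB and 530 to 730 in the reference (log2 difference -1.01, SE 0.152, edgeR adjusted p = 0.083, DESeq2 8.8e-08). Xpo1, the gene of the main nuclear export receptor, was at 271 CPM in A, 327 in B and 477 in AB, with 369 to 463 in the reference. Hells, a chromatin remodeller gene needed for DNA methylation, was at 220, 273 and 417 CPM, with 297 to 400 in the reference. Among the 6 higher genes was Prkd2, a kinase gene, at 23.2 CPM in A, 13.2 in B and 13.8 in AB. The reference range was 7.71 to 13.5, so AB was slightly above it too. The zinc-finger genes Zfp990, Zfp985, Zfp979, Zfp984 and Gm21411 of chromosome 4 were lower too. They are closely related copies whose reads may be shared, so their values are uncertain.

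In AB the protein-coding genes called lower by both of these fits were Egr1, Egr2 and Smcr8. Egr1, an immediate early gene induced by ERK, was at 124 CPM in AB, with 433 in A, 509 in B and 285 to 821 (median 550) in the reference (log2 difference -2.17, SE 0.527, edgeR adjusted p = 0.802, DESeq2 0.0019). Egr2, of the same family, was at 1.70 CPM in AB, with 9.73 in A, 11.6 in B and 6.17 to 29.6 in the reference. Smcr8, whose product acts with C9ORF72 in autophagy, was at 36.4 CPM in AB, with 57.4 in A, 70.7 in B and 59.4 to 144 in the reference. In A and B both Egr1 and Egr2 were within the reference range.

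**Figure D5:**
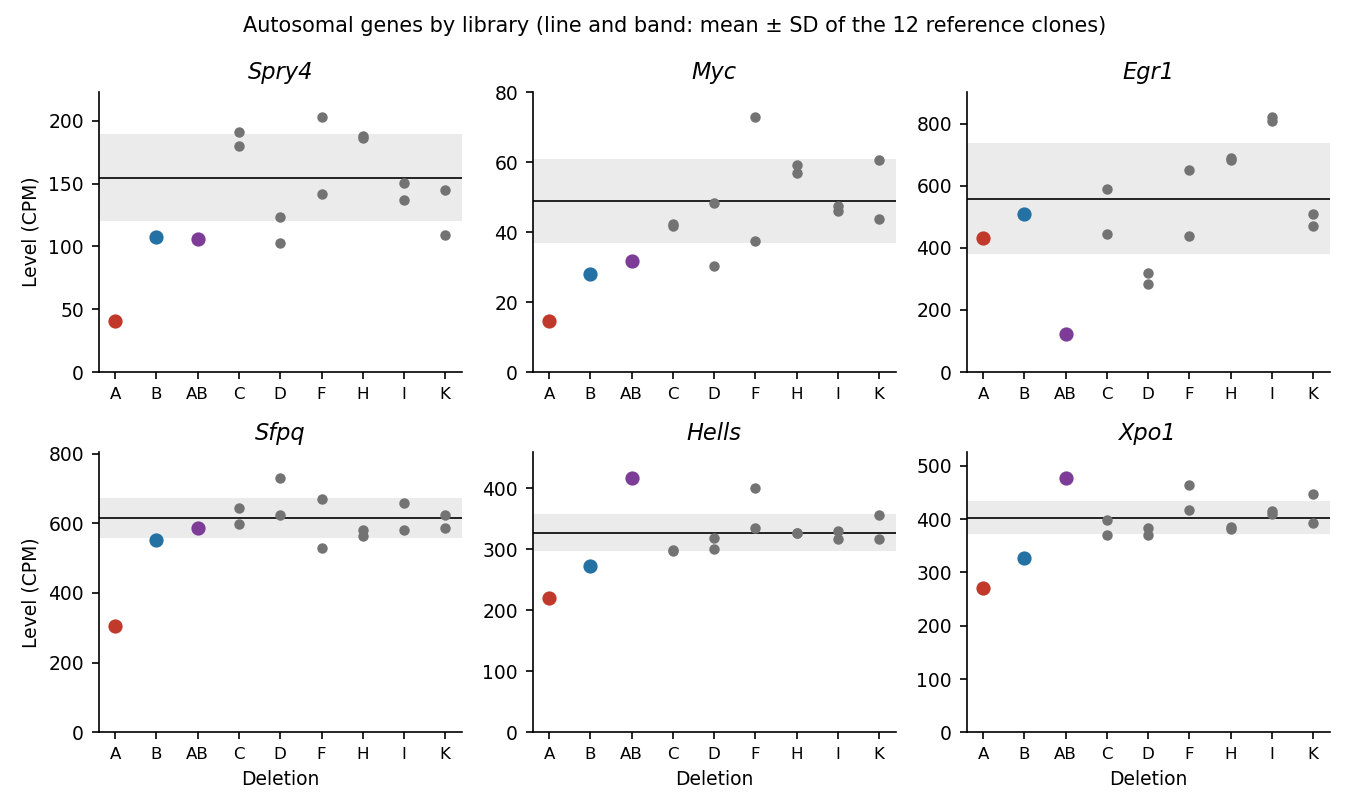
Level in CPM (vertical axes) of the autosomal genes Spry4, Myc, Egr1, Sfpq, Hells and Xpo1 in A, B, AB and the 2 clones of each reference line (horizontal axes), with the line and band giving the mean and SD of the 12 reference clones. Spry4, Myc and Sfpq are lowest in A, Egr1 is lowest in AB, and Hells and Xpo1 are below the reference range in A and B and above it in AB.

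Additivity was tested as the departure of AB from A plus B on the log2 scale. The median departure over the 11204 autosomal genes was -0.02. By edgeR 0% were called, with 750 genes at an unadjusted p below 0.05 (438 positive, 312 negative). DESeq2 called 21 (18 positive, 3 negative) and a term for each line 262, of which 18 were shared with DESeq2 in direction (15 positive, 3 negative). The departure adds the error of 3 single clones and of the reference, so its standard errors are wide. AB also lacks the 15 genes between A and B, and the share of a departure that comes from them cannot be told apart.

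Most of the shared positive departures were genes lower in A, and often B, but not in AB. The departure was 1.11 for Xpo1 (SE 0.213, edgeR adjusted p = 0.45, DESeq2 0.00112) and 1.18 for Hells (SE 0.235, edgeR adjusted p = 0.45, DESeq2 0.0034). For Sfpq it was 1.096 (SE 0.237, edgeR adjusted p = 0.45, DESeq2 0.0179). The 3 negative departures were Whrn (-1.56), Rasl11b (-1.84) and Rfx2 (-1.08). Rfx2, a gene of a ciliogenesis factor, was at 159 CPM in A and 178 in B, above the reference range of 101 to 132, and at 114 in AB.

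Gene lists for the state of the cells were then read, each beside the median log2 difference of all autosomal genes, -0.007 in A, -0.011 in B and -0.019 in AB. The core stem cell genes were present in all 3 clones: Pou5f1 was at 1284 CPM in A, 1484 in B and 1372 in AB, with 1087 to 1611 in the reference. Nanog was at 448, 569 and 521 CPM, with 479 to 631 in the reference, so that A was below the range. Of the 196 listed genes tested, edgeR called 0 in A, B or AB. DESeq2 called Chac1, Myc and Spry4 in A, 0 in B and Egr1 in AB, and a term for each line called 28, 1 and 28. Over the 11204 autosomal genes DESeq2 called 38, 0 and 4 and a term for each line 968, 75 and 349. The numbers at an unadjusted p below 0.05 by edgeR are given with each list. Over the 11204 autosomal genes such a p was found for 997 in A, 472 in B and 540 in AB. Of these, 525, 281 and 338 were lower, and 472, 191 and 202 were higher. Among the 9759 autosomal protein-coding genes, 4844 were above 0 in A, 4910 in B and 4586 in AB.

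The 16 feedback targets of MAPK signalling had a median log2 difference of -0.39 in A, -0.40 in B and -0.52 in AB, with 13, 14 and 13 genes below 0 and 4, 2 and 2 lower at an unadjusted p below 0.05. Their summed level was 1375 CPM in A, 1561 in B and 1238 in AB, with 1422 to 2109 (median 1888) in the reference, so A and AB were below the range. The members lower at such a p were Spry2, Spry4, Spred1 and Myc in A, Spred1 and Myc in B, and Dusp4 and Egr1 in AB. Set directly against A or against B, AB had 0 edgeR calls over all 11681 genes, and A was not tested against B.

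For naive pluripotency, 17 genes had medians of -0.30 in A, -0.03 in B and -0.22 in AB, with 3, 0 and 3 lower at an unadjusted p below 0.05. Tbx3, a transcription factor gene of the naive state, was at 84.2 CPM in AB, with 187 in A, 272 in B and 128 to 436 in the reference (log2 difference -1.90, edgeR adjusted p = 0.967). In AB 13 of the 17 genes were below 0. There 5 members of that list were below all 12 reference clones and 2 were above them. Dppa3 was at 85.2 CPM there, with 46.9 in B and 27.0 to 80.3 in the reference (edgeR adjusted p = 0.985, and 0.0128 with a term for each line), and Sox2 was at 419 CPM (edgeR adjusted p = 0.985); both were picked after their values were seen. Nr0b1, an X-linked gene outside A, B and AB that encodes the nuclear receptor DAX1 and has 1 copy in the Deletion F clones, was at 172 CPM in A, 232 in B and 157 in AB, with 191 to 406 in the reference. The 15 genes of the formative and primed state had medians of 0.18 in A, -0.08 in B and 0.63 in AB, and 13 of 15 were above 0 in AB. At an unadjusted p below 0.05 were 0 in A, 0 in B and 3 in AB, all higher. Otx2, a transcription factor gene of the formative state, was at 255 CPM in AB, with 177 in A, 130 in B and 61.1 to 203 in the reference (log2 difference 1.27, edgeR adjusted p = 0.976). Utf1 was at 877 CPM in AB against 413 to 723 in the reference, and Fgf15 at 65.0 against 13.5 to 54.5. In AB 6 members of that list were above all 12 reference clones and 1 was below them. Otx2, Utf1 and Fgf15 were picked after their values were seen. The summed level of that list was 1760 CPM in A, 1604 in B and 2509 in AB, with 978 to 2312 in the reference.

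Because Tfe3 lies in region A, lysosome genes and other targets of TFEB and TFE3 were read as a list of 32. Their median was -0.06 in A, -0.01 in B and -0.34 in AB. In AB 26 of 32 were below 0 and 5 were lower at an unadjusted p below 0.05, Lamp1 and Gla among them. In A 1 was higher at such a p, and B had 0. The summed level was 4067 CPM in A, 4109 in B and 3183 in AB, with 3408 to 5539 in the reference. AB was below the range and A and B were inside it. Gla, the gene of lysosomal alpha-galactosidase, was at 24.9 CPM in AB, with 45.4 in A, 46.0 in B and 38.8 to 64.8 in the reference (log2 difference -1.04, edgeR adjusted p = 0.802).

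Genes of the integrated stress response (15 tested) had medians of -0.38 in A, -0.11 in B and -0.13 in AB. At an unadjusted p below 0.05, 4 were lower in A (Chac1, Asns, Sesn2 and Slc3a2), 0 in B and 2 in AB. For 17 p53 targets the medians were 0.03, -0.18 and -0.28, and for 21 cholesterol synthesis genes -0.10, -0.03 and -0.14. For 14 genes of heterochromatin and H3K9 methylation they were -0.07, 0.02 and 0.07, for 18 Polycomb subunits -0.20, -0.08 and -0.02, and for 8 germline genes silenced by DNA methylation 0.09, 0.23 and 0.31. Primitive endoderm genes (6 tested) had 0.16, 0.31 and 0.30. None of the 15 genes of the two-cell-like state passed the expression filter, and of the markers of neural and of mesoderm and endoderm cells 2 of 7 and 2 of 8 did. At an unadjusted p below 0.05 in A, B and AB were 1, 0 and 2 p53 targets and 1, 0 and 0 cholesterol synthesis genes. Heterochromatin genes gave 1, 0 and 1 and Polycomb subunits 3, 0 and 1. The germline, primitive endoderm, neural, and mesoderm and endoderm lists held 0 in each clone.

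Feeder fibroblasts could add their own RNA. Of 20 MEF markers 16 were tested, with medians of 0.65 in A, 0.34 in B and 0.48 in AB, and 15, 15 and 13 of them were above 0. By edgeR 0 had an unadjusted p below 0.05, DESeq2 called 0, and a term for each line called 8 in A, 0 in B and 3 in AB, all higher. Their summed level was 3641 CPM in A, 3548 in B and 3007 in AB, inside the reference range of 2176 to 4179 (median 3061), and no tested marker lay outside the reference range in any of the 3 clones. Col1a1, a collagen gene that defines these cells, was at 139, 108 and 119 CPM, with 33.2 to 186 in the reference. The part of feeder RNA in the results above was not tested. In bulk RNA, fewer cells of a kind and less RNA of a gene per cell cannot be told apart.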

How the data were processed

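RNA-seq of A, B, AB and the 12 reference clones was taken from the deposited table of counts, made by the authors with Trim Galore 0.6.7, HISAT2 2.2.1 (mm10, masked at the SNPs between the strains), allele splitting, SAMtools 1.10 and, per the labels, HTSeq 0.12.4. The study's methods name featureCounts in place of HTSeq. The deposited values are raw counts per gene for all reads, for Mus reads and for Cast reads, not normalized. The labels gave each library its deletion and clone. Of 55421 genes, 55240 were matched to GENCODE M21. Expressed genes had a mean TPM above 5 in the 2 XX Rnf12 libraries, which serve otherwise only as an alternative reference. This left 11681 genes, 11204 of them autosomal.

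Counts were fitted with edgeR 4.0.16 (robust quasi-likelihood, R 4.3.3), with 1 term each for A, B, AB and the reference. Copy number entered as an offset, and TMM scaling used autosomal genes. Residual degrees of freedom were 11. Cast reads were fitted likewise, without copy number, for genes with a mean of at least 10. Genes of a region lie wholly within the limits the study gives. DESeq2 1.42.0, a term for each reference line, a block on clone number, other filters, each reference clone left out, and the XX Rnf12 libraries as reference were alternatives. Comparisons of A, B and AB share their reference. Genes named were Rlim, Tfe3, the genes next to each end, called genes, and listed genes by counts. Others were chosen after their values were seen and are given as such: those singled out by library order, by Cast share, by an unadjusted p, or by DESeq2 with a term for each line. The members and gene lists were chosen with earlier results of these data known. The fit was tested on simulated data. Clone numbers paired no samples: over 15 pairs of reference lines, deviations of same-numbered clones correlated between -0.102 and 0.24 (median 0.0671), with 4 above 0.1. Some results are not reported here.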

Additional observations from a re-analysis of the deposited data

How the results depend on the processing

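A term for each reference line takes its spread from clones of a line alone. With a term for each line, calls per copy were 5 in region A (0 in the reported fit), 6 in region B (0) and 8 between (4), and 1 on the Cast allele of region A (0). The protein-coding genes among the per-copy calls were Pcsk1n, Rbm3 and Porcn in region A and Rbm10 and Klhl13 in region B. Between the regions they were Bcor, Med14, 1810030O07Rik and Kdm6a, and all other per-copy calls were pseudogenes. On the autosomes a term for each line called 968 genes in A, 75 in B, 349 in AB and 262 in the departure, and on the X outside the deletions 43, 3 and 20. DESeq2 called 2 in region A and 2 in region B, all pseudogenes, 38 autosomal genes in A, 4 in AB, 21 in the departure and 1 X-linked gene in A. With the XX Rnf12 libraries as reference, which have other library names and differ by 2 libraries only, calls were 3 in region A, 3 in region B, 740, 345 and 46 autosomal genes in A, B and AB, and 37, 14 and 1 on the X. The cause was not tested. Of the calls against the XX Rnf12 libraries, the only protein-coding gene was Hdac6 in region A and Ndufb11 in region B. A block on clone number, which pairs no samples here, gave 2 calls between the regions and 1 autosomal call in A. Leaving out each reference clone gave 0 to 1 calls in region A, in region B and on the autosomes in A, 2 to 4 between the regions, and 0 elsewhere. The call of 1 came without Deletion D clone 1 in both regions, and the 2 without Deletion H clone 2, Deletion I clone 2 or Deletion K clone 1. Counting all genes in place of protein-coding genes moved the Mus share between the regions to 65.6% in A, 60.8% in B and 38.2% in AB, through pseudogenes, and the share outside to 54.3% in A. With the mean of log2 levels, region levels were 100.5% (B, region A), 92.3% (A, between), 101.1% (B, region B) and 104.6% (AB, region B). No called result changed direction. Without the 2 reference clones in which whole autosomes stood above the rest, chosen after seeing the data, no count changed by over 1.5 times.

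Depth limits genes with few allelic reads, and single clones limit every test of A, B and AB.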

Other observations

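A, B and AB were also set together against the 12 reference clones, a contrast added after seeing the data. On total counts edgeR called 0 of 11681 genes (1502 at an unadjusted p below 0.05), while DESeq2 called 34 autosomal genes higher and 131 lower, and a term for each line 823 higher and 908 lower. On the Cast allele edgeR called 6 of 7873 genes (0.0762%), 1 higher and 5 lower, chosen here after their values were seen. Higher was Ssx2ip, which encodes a centrosome and junction protein (Cast log2 difference 1.09, SE 0.206, edgeR adjusted p = 0.0451). Its total level was 57.6 CPM in A, 54.8 in B and 66.4 in AB, with 26.7 to 59.9 in the reference.

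Lower were Epop, a Polycomb-associated gene (Cast log2 difference -0.70), Mat2a, which encodes the enzyme that makes S-adenosylmethionine (-1.29), the splicing factor gene Srsf1 (-1.29), Spry4 (-1.11) and Nr0b1 (-0.91). In total counts Mat2a was at 97.8 CPM in A, 103 in B and 184 in AB, with 140 to 358 in the reference, so AB was inside the range. Srsf1 was at 287 CPM in A, 282 in B and 468 in AB, with 306 to 483 in the reference, and AB was again inside the range. Epop was at 177 CPM in A, 264 in B and 298 in AB, with 238 to 433 in the reference, so only A was below it. The total level of Spry4 was also below the range in A only, and that of Nr0b1 was inside the range in B.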
